A study of Mus musculus with 11 samples.

Results

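The tailbud transcriptome of Fgfr1 FCSPG/FCSPG embryos was compared with that of Fgfr1 FCPG/FCPG embryos over all genes of the deposited count table. The comparison took the 7 libraries whose column names carry either mutant genotype, 4 FCSPG (numbered 13, 27, 30 and 32 in the table) and 3 FCPG (19, 45 and 46), out of 11 in the series. The other 4 libraries (24, 25, 26 and 33) are wild type and are given here for level. Tailbud tissue was cut by microdissection from mouse embryos at embryonic day 8.5 and its polyA RNA was sequenced. The labels name its cells as neuromesodermal progenitors with somitic and intermediate mesoderm. Total counts ran from 16014698 in FCPG library 46 to 21230739 in FCSPG library 27 among the mutants, and up to 25453070 in wild type.

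FGFR1 is a receptor tyrosine kinase that passes FGF signals on by binding effector proteins at defined residues, and in the tailbud FGF signalling keeps progenitors of the trunk in place and sets where the next somite forms. In the published allele series each letter names the binding that a point mutation removes. F stands for the adaptor Frs2, C for the adaptors Crk and Crkl, P for phospholipase C gamma, G for the adaptor Grb14 and S for the adaptor Shb. Both groups therefore carry the F, C, P and G substitutions on both alleles, and the S substitution is what FCSPG adds. The strain, the sex and the number of embryos in a library are not given in the sources used here. The p-values below therefore measure only the spread between libraries. Each mutant group holds libraries of both sexes by their transcripts, so these are not all from the same embryos. Whether libraries of the same sex in a group come from separate embryos is not known, and their spread may be technical.

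No gene passed correction by edgeR in the comparison of FCSPG with FCPG. The filter on low counts passed 16572 of 56748 genes, among which edgeR's quasi-likelihood test called 0 (0%) at an adjusted p under 0.05, and the smallest adjusted p was 0.435. At an unadjusted p under 0.05 it listed 1897 genes (11.4%), of which 791 (4.77%) were higher in FCSPG and 1106 (6.67%) lower. DESeq2 on the 11 libraries called 1 gene, and limma-voom called 0 and listed 855 higher and 714 lower genes at an unadjusted p under 0.05. The median log2 fold change over all tested genes was −0.0078, with quartiles of −0.28 and 0.26, and 49.2% of genes were above 0. The groups did not overlap in 4.66% of genes. In 387 genes (2.34%) every FCSPG library lay above every FCPG library, and in 386 genes (2.33%) every one lay below. The authors' deposited table for the same pair of groups lists 1482 genes, 550 higher and 932 lower in FCSPG, of which 0 have an adjusted p under 0.05. The smallest adjusted p in the authors' deposited table is 0.753. The 1 gene called by DESeq2 was Pcna-ps2, ENSMUSG00000067608, chromosome 19, 9260744 to 9261524 (build mm39), a processed pseudogene of the replication clamp gene Pcna that was named for this call. It measured 69.9, 79.2 and 85.3 CPM, counts scaled to library size, in FCPG libraries 19, 45 and 46, and 168, 127, 131 and 121 CPM in FCSPG libraries 13, 27, 30 and 32. The groups did not overlap, and wild type spanned 118 to 142 CPM. DESeq2's adjusted p was 0.000828, and edgeR gave a log2 fold change of 0.81 ± 0.13 (SE) with an adjusted p of 0.435. Across all settings tried its adjusted p ran from 0.000828 to 0.813. Pcna itself had a log2 fold change of 0.099 with an adjusted p of 0.855 by edgeR, and reads of a gene and its near-identical pseudogene may be split in counting.

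The 7 libraries did not sort by genotype. Across tested genes, log2 CPM correlated at 0.920 to 0.948 between the FCPG libraries (3 pairs), at 0.949 to 0.979 between the FCSPG libraries (6 pairs) and at 0.896 to 0.981 between the groups (12 pairs), where genes are not independent replicates. The SD of log2 CPM was larger in FCPG than in FCSPG for 10664 genes (64.3%), with medians of 0.370 and 0.275. FCPG library 45 was the highest of the 7 libraries in 4517 genes (27.3%) and the lowest in 4165 (25.1%). FCPG libraries 19 and 45 and FCSPG library 32 carried Y-linked transcripts (167, 195 and 179 CPM in sum) and the others none, with Xist at 246 to 670 CPM. The counts of genes turned on single libraries. Without FCPG library 19 edgeR called 1063 genes, 549 higher and 514 lower in FCSPG, and listed 4774 at an unadjusted p under 0.05. Without FCPG library 45 it called 0 and listed 717, and without FCPG library 46 it called 0 and listed 1310. Leaving out FCSPG library 13, 27, 30 or 32 gave 0 calls and 1217, 953, 1235 or 2471 genes at an unadjusted p under 0.05. With embryo sex as a covariate 0 genes were called and 937 listed. In the female libraries alone, which leave FCPG with library 46 only and assume that it varies like the others, 28 genes were called.

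Marker genes set the FCPG libraries apart from one another. Genes of the visceral endoderm and yolk sac, the extraembryonic tissue that wraps the early embryo, summed to 2256, 22074 and 5831 CPM in FCPG libraries 19, 45 and 46. In FCSPG libraries 13, 27, 30 and 32 they summed to 4908, 2623, 1070.2 and 5211 CPM, and in wild type to 184 to 1519 CPM. FCPG library 45 stood above all others, and the remaining FCPG libraries lay near or inside the FCSPG range. T, the transcription factor that marks the tailbud, measured 106, 23.2 and 65.6 CPM in FCPG and 126, 78.6, 62.2 and 88.4 CPM in FCSPG. Tbx6, which directs progenitors to presomitic mesoderm, measured 49.9, 9.22 and 7.29 CPM in FCPG and 31.9, 21.9, 15.6 and 22.6 CPM in FCSPG. Osr1, an intermediate mesoderm factor, measured 27.8, 1.71 and 14.6 CPM in FCPG and 22.2, 29.9, 24.8 and 11.6 CPM in FCSPG. These 3 markers were thus counted in every library, with FCPG library 45 lowest for T and Osr1 and FCPG library 46 lowest for Tbx6. Other markers of the cells in the label were scarce in FCPG library 45. The mean log2 CPM of the neuromesodermal progenitor list was 2.41 there, against 4.98 to 6.69 in the other mutant libraries. In bulk tissue, fewer cells of a type and less RNA per cell cannot be told apart.

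**Figure D1:**
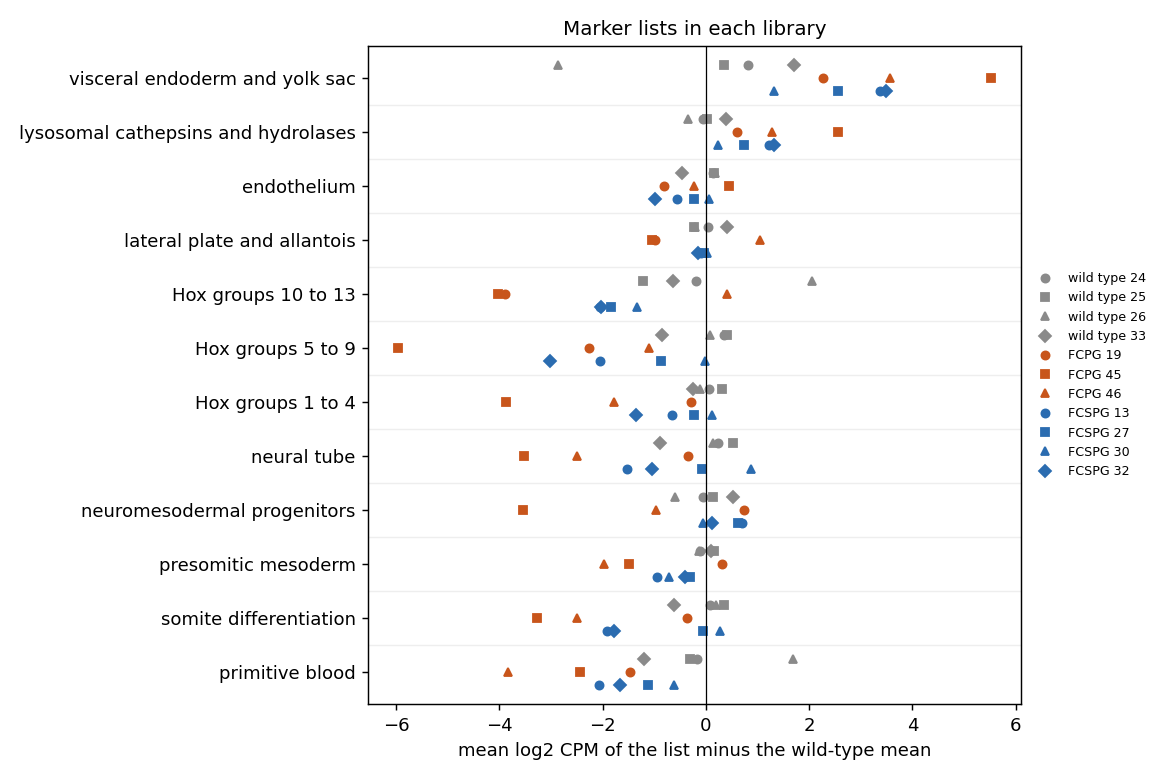
Mean log2 CPM of 12 marker lists in each library, as the difference from the mean of the 4 wild-type libraries. Each row is a list, grey marks are wild type, orange FCPG and blue FCSPG, and the marker shape gives the library. FCPG library 45 (orange square) is the highest in visceral endoderm genes and the lowest or next to lowest in most trunk lists, and FCPG library 46 (orange triangle) is the highest of the 7 mutant libraries in Hox groups 10 to 13 and in lateral plate and allantois genes.

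Fgfr1 and the effectors named by the allele letters differed little between the groups relative to their spread. The receptor gene itself, Fgfr1, ENSMUSG00000031565, chromosome 8, 26003670 to 26065734 (build mm39), measured 242, 178 and 183 CPM in FCPG libraries 19, 45 and 46 and 181, 171, 162 and 248 CPM in FCSPG libraries 13, 27, 30 and 32. The groups overlapped, the means were 201 ± 35.5 CPM (SD, n = 3) and 190.5 ± 39.4 CPM (SD, n = 4), and the log2 fold change of −0.079 ± 0.16 (SE) had an adjusted p of 0.834. Counts per gene cannot tell the point mutations apart, and the genotype labels were not checked by this level. Shb, ENSMUSG00000044813, chromosome 4, 45423278 to 45532470, whose binding the added substitution removes, measured 28.9, 20.1 and 26.7 CPM in FCPG and 37.2, 24.5, 16.9 and 32.5 CPM in FCSPG. Its groups overlapped, with a log2 fold change of 0.14 ± 0.25 (SE) and an adjusted p of 0.808, and it turned to −0.0054 without FCPG library 45. Wild type held 16.2 to 20.8 CPM of Shb. Crk measured 200.5 to 222 CPM in FCPG and 177 to 218 CPM in FCSPG, and Crkl 106 to 112 and 91.1 to 123 CPM. Plcg1, the phospholipase, measured 123 to 199.7 CPM in FCPG and 139.9 to 167 CPM in FCSPG. Grb14 was counted at 3.69 to 7.38 CPM in FCPG and 3.31 to 5.57 CPM in FCSPG, above the 2.37 to 3.01 CPM of wild type in every mutant library. The groups overlapped in each of these, with log2 fold changes of −0.14 ± 0.13 (SE), −0.021 ± 0.13 (SE), −0.072 ± 0.16 (SE) and −0.18 ± 0.29 (SE) for Crk, Crkl, Plcg1 and Grb14, and adjusted p of 0.619, 0.952, 0.851 and 0.79. The sign for Crkl, Plcg1, Grb14 and Fgfr1 turned in some alternative settings.

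Gab1, Frs2 and Sos1, which relay the signal towards PI3 kinase and Ras, had lower means in FCSPG. Gab1, the docking protein that links FGFR1 and Frs2 to PI3 kinase, measured 41.4, 109 and 68.95 CPM in FCPG and 52.5, 39.3, 46.9 and 45.3 CPM in FCSPG. FCPG libraries 45 and 46 lay above every FCSPG library and FCPG library 19 among them. Its log2 fold change was −0.67 ± 0.25 (SE) with an adjusted p of 0.435, and −0.26 without FCPG library 45. Frs2 itself measured 45.5, 69.2 and 116 CPM in FCPG and 49.4, 43.4, 46.1 and 65.7 CPM in FCSPG, where FCPG library 46 was the highest and the log2 fold change was −0.59 ± 0.30 (SE) with an adjusted p of 0.447, and −0.17 without that library. Sos1, the exchange factor that activates Ras, measured 45.8, 53.9 and 47.4 CPM in FCPG and 37.7, 37.5, 39.9 and 43.9 CPM in FCSPG. Here the groups did not overlap, yet the difference was small, with a log2 fold change of −0.30 ± 0.15 (SE) and an adjusted p of 0.451. Of the 17 effectors and adaptors, 2 were higher and 15 lower in FCSPG, 0 and 1 of them at an unadjusted p under 0.05, against 4.77% and 6.67% of all tested genes. Their median log2 fold change was −0.14, and between −0.26 and −0.067 over the alternatives.

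**Figure D2:**
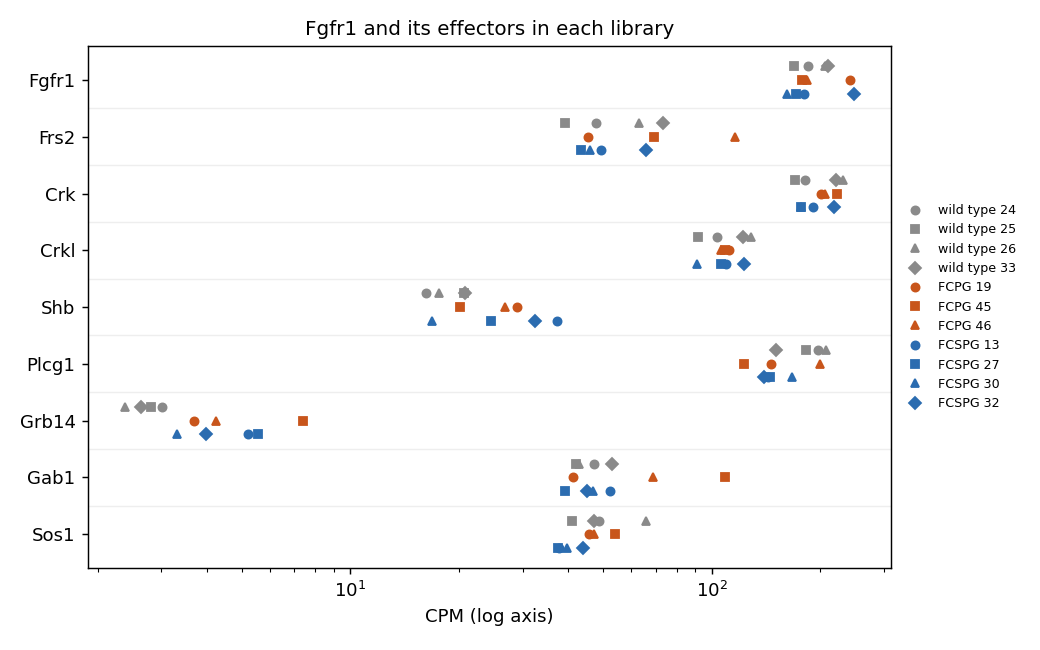
CPM on a log axis of Fgfr1, the effectors named by the allele letters and the adaptors Gab1 and Sos1 in each of the 11 libraries. Grey marks are wild type, orange FCPG and blue FCSPG, with 1 marker shape per library. The orange and blue marks overlap in every row but that of Sos1, and for Gab1 FCPG library 45 stands at 109 CPM.

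Fgf9, Fgf8 and Fgf17 each reached their lowest value in FCPG library 45 or 46. Fgf9, ENSMUSG00000021974, chromosome 14, 58308004 to 58350177, measured 1.48, 0.295 and 0.182 CPM in FCPG and 1.91, 4.33, 11.5 and 0.655 CPM in FCSPG, against 2.74 to 20.7 CPM in wild type. FCSPG library 30 was the highest mutant library and FCSPG library 32 lay within the FCPG range. Its log2 fold change of 2.78 ± 1.05 (SE) had the smallest p of the ligands (unadjusted p = 0.0223, adjusted p = 0.435 by edgeR). Fgf8, the main tailbud ligand, measured 36.4, 5.26 and 30.4 CPM in FCPG and 63.7, 53.4, 58.6 and 28.5 CPM in FCSPG. In 3 of 4 FCSPG libraries it lay above every FCPG library, and FCPG library 45 lay far below the rest. Wild type held 26.6 to 52.01 CPM. The log2 fold change was 1.09 ± 0.53 (SE) with an adjusted p of 0.437, and 0.61 without FCPG library 45. Fgf17, of the same subfamily, measured 7.39, 0 and 3.58 CPM in FCPG and 8.43, 9.09, 17.4 and 3.58 CPM in FCSPG, below the 11.3 to 51.1 CPM of wild type in all mutant libraries but FCSPG library 30. Of 9 ligands tested, 6 were higher and 3 lower in FCSPG. At an unadjusted p under 0.05 there were 1 and 0 ligands, against 4.77% and 6.67% of all tested genes. The median log2 fold change was 0.69, and ran from 0.15 without FCSPG library 13 and 0.30 without FCPG library 45 to 1.14 without FCPG library 19.

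Receptor and co-receptor genes that differed most were high in FCPG library 45. Fgfr4, a receptor for circulating FGFs, measured 11.5, 68.3 and 14.5 CPM in FCPG and 12.7, 10.99, 9.24 and 16.4 CPM in FCSPG. Klb, the co-receptor beta-klotho, measured 4.59, 54.3 and 14.5 CPM in FCPG and 6.58, 5.995, 2.35 and 11.03 CPM in FCSPG. Gpc3, a cell-surface heparan sulphate proteoglycan, measured 646, 1683 and 800.03 CPM in FCPG and 787, 679, 617 and 722 CPM in FCSPG. All 3 genes overlapped between the groups, and FCPG library 45, which was highest in them, also held the most visceral endoderm transcripts. For Fgfr4, Klb and Gpc3 the log2 fold changes were −1.35 ± 0.53 (SE), −1.91 ± 0.74 (SE) and −0.57 ± 0.26 (SE), and without FCPG library 45 they came to −0.08, −0.55 and −0.048. Adjusted for the visceral endoderm score they came to −0.62, −0.69 and −0.36. Of 10 receptors and co-receptors, 3 were higher and 7 lower in FCSPG. At an unadjusted p under 0.05 there were 0 and 3, the genes just named, against 4.77% and 6.67% of all tested genes.

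Genes that report on ERK signalling did not shift together. Ier2, an immediate early gene, measured 76.7, 48.6 and 51.1 CPM in FCPG and 99.5, 83.3, 80.7 and 68.97 CPM in FCSPG, a log2 fold change of 0.50 ± 0.19 (SE) with an adjusted p of 0.435. FCPG library 19 lay within the FCSPG range and the other FCPG libraries below it. Spry4, a feedback inhibitor of the pathway, went the other way, at 23.4, 38.3 and 45.02 CPM in FCPG and 32.6, 24.98, 19.97 and 24.4 CPM in FCSPG, a log2 fold change of −0.48 ± 0.22 (SE) with an adjusted p of 0.436, and −0.28 without FCPG library 46. Etv5, an ETS factor induced by FGF, measured 123, 202 and 153 CPM in FCPG and 135, 114, 94.1 and 142 CPM in FCSPG, a log2 fold change of −0.39 ± 0.18 (SE) that came to −0.19 without FCPG library 45. FCPG library 45 was the highest and the groups overlapped. Of 17 feedback genes and targets, 8 were higher and 9 lower in FCSPG, and the median log2 fold change was −0.086. At an unadjusted p under 0.05 there were 1 and 1, against 4.77% and 6.67% of all tested genes.

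The PDGF and PI3 kinase genes were likewise split, 6 higher and 7 lower of 13 in FCSPG, with a median of −0.063. At an unadjusted p under 0.05 there were 1 and 2, against 4.77% and 6.67% of all tested genes. Pdgfra, the PDGF receptor of mesoderm, measured 139.8, 158 and 144 CPM in FCPG and 121, 112, 119.9 and 137 CPM in FCSPG, so that every FCSPG library lay below every FCPG library. The log2 fold change was −0.27 ± 0.11 (SE) with an adjusted p of 0.435, and wild type held 146 to 185 CPM. Pdgfa, its ligand, measured 67.1, 26.6 and 76.5 CPM in FCPG and 109, 107, 110.1 and 56.7 CPM in FCSPG. FCSPG libraries 13, 27 and 30 were high and FCSPG library 32 lay within the FCPG range, for a log2 fold change of 0.75 ± 0.34 (SE) and an adjusted p of 0.435, and 0.41 without FCPG library 45. Pik3ca, a catalytic subunit of PI3 kinase, measured 54.6, 66.04 and 90.8 CPM in FCPG and 51.1, 51.2, 54.4 and 62.2 CPM in FCSPG. FCPG library 46 was the highest, and the gene had a log2 fold change of −0.36 ± 0.16 (SE) and came to −0.14 without FCPG library 46.

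Genes of endocytic trafficking, which the title of the series names, had lower means in FCSPG, and most of that difference lay in FCPG library 45. Eea1, the tether of early endosomes, measured 35.99, 122 and 53.2 CPM in FCPG and 32.5, 26.1, 24.2 and 42.7 CPM in FCSPG. FCPG libraries 45 and 46 lay above every FCSPG library and FCPG library 19 did not. The log2 fold change was −1.16 ± 0.36 (SE) with an adjusted p of 0.435, and −0.51 without FCPG library 45. Cltc, the clathrin heavy chain, measured 412, 1268 and 606 CPM in FCPG and 487, 372, 326 and 529 CPM in FCSPG. Vps35, the core of the retromer that recycles receptors from endosomes, measured 185, 435 and 255 CPM in FCPG and 158, 152, 145 and 235 CPM in FCSPG. Dnm2, the dynamin that cuts vesicles free, measured 64.5, 124 and 81.7 CPM in FCPG and 65.2, 65.7, 59.95 and 71.8 CPM in FCSPG. The log2 fold changes of Cltc, Vps35 and Dnm2 were −0.83 ± 0.31 (SE), −0.76 ± 0.28 (SE) and −0.46 ± 0.18 (SE). FCPG library 45 was the highest in each, and without it they came to −0.25, −0.35 and −0.16. Of 22 trafficking genes 4 were higher and 18 lower in FCSPG, 0 and 4 of them at an unadjusted p under 0.05, against 4.77% and 6.67% of all tested genes. The median log2 fold change was −0.22, and 0.02 without FCPG library 45. Summed over the list, FCPG libraries 19, 45 and 46 held 2287, 4416 and 2777 CPM and FCSPG 2553, 2399, 2214 and 2625 CPM. The 7 mutant libraries stood in the same order in this sum as in that of the visceral endoderm genes, whose part in the result was not tested. Adjusted for the visceral endoderm score, the median of the trafficking list came to −0.14. That score was 9.25 in FCPG library 45 and 7.28 in FCPG library 46, the next mutant library. Tissue content and other traits of FCPG library 45 thus cannot be told apart by this adjustment.

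Visceral endoderm genes were lower in FCSPG than in FCPG on average, and most of the difference lay in FCPG library 45. Dab2, an adaptor for megalin uptake, measured 224, 2038 and 467 CPM in FCPG and 405, 188, 87.7 and 452 CPM in FCSPG, against 46.6 to 145 CPM in wild type. Lrp2, which encodes megalin, measured 82.6, 546 and 191 CPM in FCPG and 97.5, 82.7, 65.7 and 179.9 CPM in FCSPG. Trf, the iron carrier transferrin, measured 30.5, 498 and 86.3 CPM in FCPG and 50.5, 47.6, 16.2 and 75.2 CPM in FCSPG. In all 3 genes FCPG library 45 exceeded every other library and FCPG library 19 lay inside the FCSPG range. For these genes the log2 fold changes were −1.68 ± 0.72 (SE), −1.36 ± 0.51 (SE) and −2.11 ± 0.83 (SE), and −0.29, −0.36 and −0.31 without FCPG library 45. All 19 tested members were lower in FCSPG, 3 of them at an unadjusted p under 0.05, against 6.67% of all tested genes. The median log2 fold change of the list was −1.42, and −0.17 without FCPG library 45. The lysosomal list showed the like, with 0 of 15 members higher, 3 of 15 lower at an unadjusted p under 0.05 and a median of −0.77 that came to 0.015 without that library. Gaa, the lysosomal glucosidase, measured 28.8, 109.6 and 50.1 CPM in FCPG and 33.7, 37.02, 31.1 and 36.4 CPM in FCSPG. FCPG library 45 was the highest and the groups overlapped.

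The groups did not overlap in 4.66% of genes. Of these, the 12 protein-coding genes per direction with the smallest p are described here, so their separation is set by the choice. None passed correction, each with an adjusted p of 0.435. Dll4 had the smallest p of the higher genes. Dll4, ENSMUSG00000027314, chromosome 2, 119156265 to 119166443 (build mm39), a Notch ligand best known from endothelium, measured 4.696, 3.31 and 3.22 CPM in FCPG libraries 19, 45 and 46 and 9.57, 8.09, 8.97 and 6.297 CPM in FCSPG libraries 13, 27, 30 and 32. Wild type held 7.295 to 12.5 CPM, so that FCPG lay below both other groups. The means were 3.74 ± 0.828 CPM (SD, n = 3) and 8.23 ± 1.42 CPM (SD, n = 4), a 2.19-fold difference with a log2 fold change of 1.13 ± 0.27 (SE) and an unadjusted p of 0.00122. Without any 1 library the log2 fold change stayed between 1.04 and 1.35, and its adjusted p across the alternatives ran from 0.0351 to 0.813. Nog, ENSMUSG00000048616, chromosome 11, 89191464 to 89193158, a secreted antagonist of BMPs made by the notochord and the dorsal neural tube, measured 8.07, 4.02 and 4.31 CPM in FCPG and 8.49, 16.1, 15.8 and 8.66 CPM in FCSPG. FCPG library 19 came close to FCSPG libraries 13 and 32, and wild type held 8.02 to 13.4 CPM. The log2 fold change was 1.16 ± 0.35 (SE) with an unadjusted p of 0.00606.

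The other 10 genes higher in FCSPG have varied roles. Arl4c, an ARF-like GTPase, measured 105, 73.2 and 87.2 CPM in FCPG and 129, 156, 122 and 113 CPM in FCSPG. Rap2b, a GTPase of the Ras family, measured 18.6, 15.4 and 13.7 CPM in FCPG and 24.4, 22.9, 23.97 and 21.3 CPM in FCSPG, with wild type at 18.99 to 20.5 CPM between the groups. Gng5, a gamma subunit of heterotrimeric G proteins, measured 167, 145 and 158 CPM in FCPG and 223, 195, 185 and 185 CPM in FCSPG. The differences came to 0.56 ± 0.14 (SE), 0.54 ± 0.14 (SE) and 0.33 ± 0.10 (SE) on the log2 scale. Tpm2, a tropomyosin of actin filaments, measured 24.3, 16.2 and 22.7 CPM in FCPG and 35.2, 42.1, 37.6 and 25.6 CPM in FCSPG, a log2 fold change of 0.74 ± 0.20 (SE). Ajuba, a LIM protein of cell junctions that restrains Hippo signalling, measured 103, 89.8 and 107 CPM in FCPG and 121, 146, 149 and 140.5 CPM in FCSPG, a log2 fold change of 0.47 ± 0.13 (SE). Bcam, a laminin receptor of epithelia, measured 111, 73.01 and 78.00 CPM in FCPG and 140.02, 171, 127 and 115 CPM in FCSPG, a log2 fold change of 0.67 ± 0.19 (SE). In Tpm2 and Bcam FCPG library 19 and FCSPG library 32 came close to each other, and in Ajuba FCPG library 46 and FCSPG library 13. Tra2a, a splicing regulator, had a log2 fold change of 0.41 ± 0.11 (SE), Tmem223 of 0.50 ± 0.14 (SE), Smco4 of 0.67 ± 0.19 (SE) and Dnaaf2, which helps to assemble ciliary dynein arms, of 0.85 ± 0.25 (SE). Tra2a separated FCPG, at 192 to 244 CPM, from wild type as well, at 288 to 319 CPM, while FCSPG at 257 to 332 CPM overlapped wild type.

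The 12 lower genes likewise have varied roles. Epb41l2, a 4.1 protein that anchors the membrane skeleton, measured 138, 197 and 183 CPM in FCPG and 115, 109, 113 and 127 CPM in FCSPG. Sptbn1, the beta spectrin of the same skeleton, measured 242, 387 and 298 CPM in FCPG and 211, 202, 192 and 242 CPM in FCSPG, where FCPG library 19 and FCSPG library 32 round to the same value. The log2 fold changes were −0.57 ± 0.14 (SE) and −0.55 ± 0.15 (SE), with unadjusted p of 0.00203 and 0.00414. Cd59a, an inhibitor of complement, measured 10.4, 14.8 and 8.57 CPM in FCPG and 6.46, 5.28, 6.83 and 6.096 CPM in FCSPG, with wild type at 5.23 to 6.62 CPM. Abcb1b, a drug efflux pump, measured 7.07, 10.6 and 7.11 CPM in FCPG and 4.603, 4.23, 4.91 and 4.84 CPM in FCSPG, with wild type at 5.13 to 6.27 CPM. In both genes FCPG lay above the other groups. The log2 fold changes were −0.87 ± 0.22 (SE) and −0.83 ± 0.21 (SE). Snx13, a sorting nexin, measured 22.8, 35.6 and 29.3 CPM in FCPG and 16.98, 17.8, 17.6 and 22.1 CPM in FCSPG. Opa1, the GTPase that fuses inner mitochondrial membranes, measured 110.4, 143 and 130.2 CPM in FCPG and 89.5, 92.5, 92.7 and 100.2 CPM in FCSPG. Their log2 fold changes were −0.65 ± 0.17 (SE) and −0.45 ± 0.12 (SE), and in both FCPG library 45 was the highest and FCPG library 19 the closest to FCSPG. For Gtf3c1, a subunit of the RNA polymerase III factor TFIIIC, the log2 fold change was −0.38 ± 0.10 (SE). Ltn1, the ubiquitin ligase of ribosome quality control, came to −0.56 ± 0.16 (SE). Phka2, a subunit of phosphorylase kinase, came to −0.58 ± 0.16 (SE), and Phf20l1, a reader of methylated lysines, to −0.55 ± 0.15 (SE). Ankrd17 had a log2 fold change of −0.54 ± 0.14 (SE) and Heatr5b of −0.76 ± 0.21 (SE). All 24 genes are listed in the authors' deposited table. Among the 24, removal of FCPG library 19 gave adjusted p between 0.0271 and 0.0882, and removal of FCPG library 45 gave 0.813 for each.

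**Figure D3:**
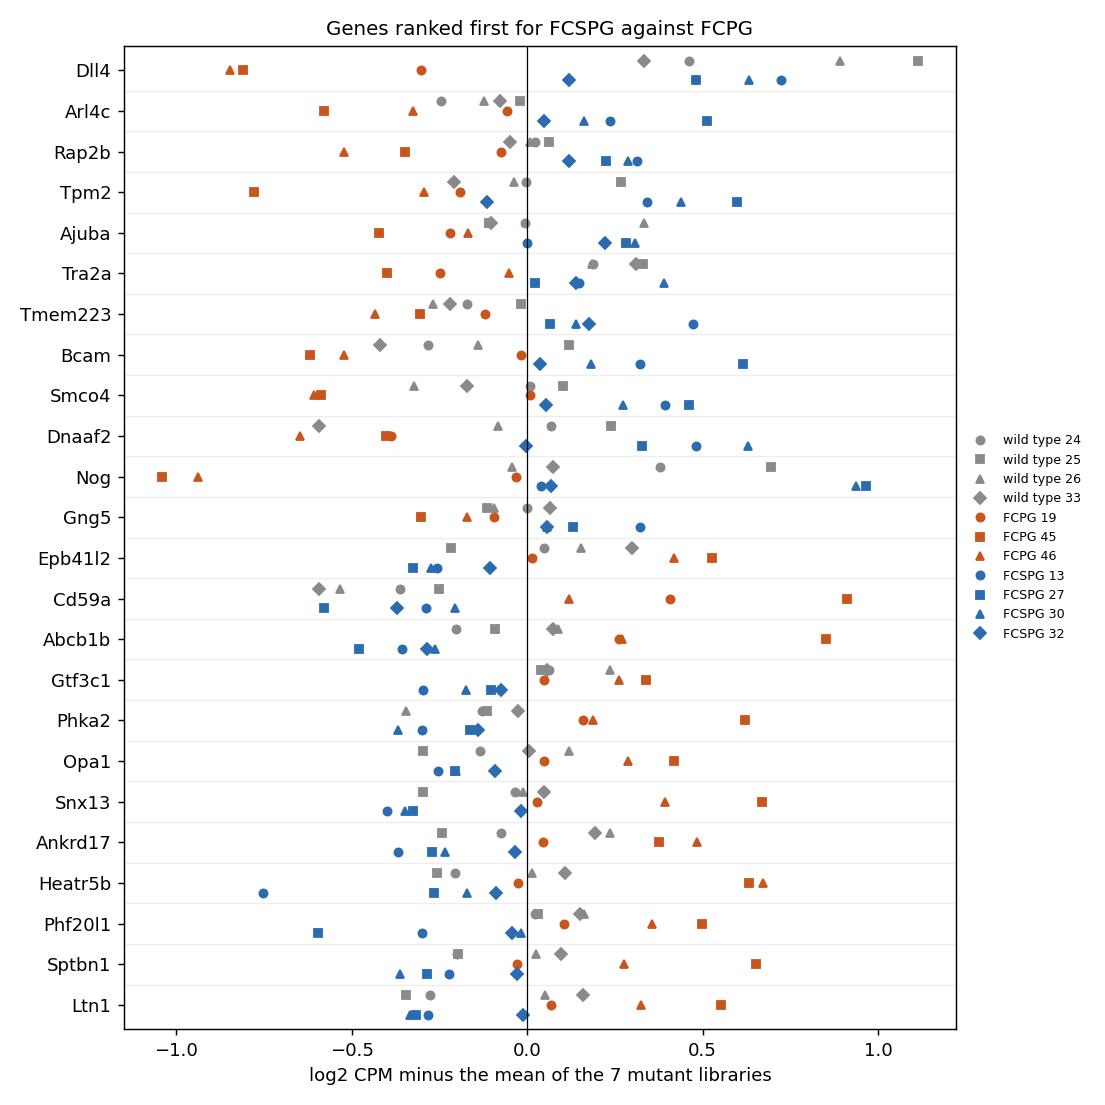
The 24 genes ranked first for FCSPG against FCPG, as log2 CPM in each library minus the mean of the 7 mutant libraries, with the 12 higher genes above the 12 lower ones. Grey marks are wild type, orange FCPG and blue FCSPG, with 1 marker shape per library. By the ranking rule no orange and blue marks overlap, and FCPG library 19 (orange circle) is the FCPG library nearest to the blue marks in most rows.

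Genes for cytosolic ribosomal proteins were higher in FCSPG almost without exception. Of 47 members tested, 46 were higher and 1 lower, and 42 and 1 had an unadjusted p under 0.05, against 4.77% and 6.67% of all tested genes. Their median log2 fold change was 0.41, a 1.33-fold difference. Their counts share reads with many pseudogene copies and are uncertain to that extent. Summed over the list, FCPG libraries 19, 45 and 46 held 48385, 36231 and 36757 CPM. FCSPG libraries 13, 27, 30 and 32 held 61195, 55840.1, 50182 and 46052 CPM, and wild type 37705 to 49599 CPM. FCPG libraries 45 and 46 lay below every FCSPG library, and FCPG library 19 lay above FCSPG library 32. FCSPG libraries 13, 27 and 30 lay above the whole wild-type range. Rps2, of the small subunit, had the smallest p of the list and measured 2556, 2094 and 1903 CPM in FCPG and 3262, 3166, 2881 and 2554 CPM in FCSPG, a log2 fold change of 0.44 ± 0.13 (SE) with an adjusted p of 0.435. Rpl23, of the large subunit, was the 1 member of 47 whose groups did not overlap. Over all tested genes, 2.34% had every FCSPG library above every FCPG library. Rpl23 measured 767, 576 and 612 CPM in FCPG and 1045, 866, 854 and 771 CPM in FCSPG, a log2 fold change of 0.44 ± 0.14 (SE). Rps9 and Rps19 had log2 fold changes of 0.47 ± 0.15 (SE) and 0.47 ± 0.15 (SE). The 1 lower member, Rpl30, named after its value was seen, had a log2 fold change of −0.67 ± 0.30 (SE). Without FCPG library 45 the median was 0.34 with 13 members at an unadjusted p under 0.05, where 1.95% of all genes were higher at that p. Without FCPG library 46 it was 0.35 with 6, where 2.46% of all genes were. Without FCSPG library 13 it was 0.33 with 14, against 3.16% of all genes. With embryo sex as a covariate the count was 15 and the median 0.39, where 2.04% of all genes were higher at that p.

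Promoters of ribosomal protein genes are known for a pyrimidine tract at the start of transcription, which puts their mRNAs under translational control by mTOR, and for sites of ETS factors. The 4 members printed here are those with the smallest p among members whose window from 70 bases before to 30 after the start holds the pyrimidine run CTTTC on the transcript strand or the ETS core CCGGAA on either strand (read as TTCCGG on the other). Capitals mark these letters. Counted from the start, CTTTC begins at −63 in Rpl11, 1 in Rplp2 and 23 in Rpsa, and the Rps21 window holds none. Only in Rplp2 does it lie at the start itself. Holding a motif was a condition of the choice, so these 4 do not stand for the list. The sequences are from RefSeq on build GRCm38.p6, on the strand of the gene.
Rpl11 (chr4:136053364-136053463, minus strand): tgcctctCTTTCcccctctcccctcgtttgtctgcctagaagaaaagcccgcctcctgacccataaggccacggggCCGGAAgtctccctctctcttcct
Rps21 (chr2:180257309-180257408, plus strand): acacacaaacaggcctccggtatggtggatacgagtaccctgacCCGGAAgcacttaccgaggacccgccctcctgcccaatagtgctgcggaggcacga
Rplp2 (chr7:141447581-141447680, plus strand): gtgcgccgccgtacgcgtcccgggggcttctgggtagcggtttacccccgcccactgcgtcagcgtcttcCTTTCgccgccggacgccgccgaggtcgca
Rpsa (chr9:120127696-120127795, plus strand): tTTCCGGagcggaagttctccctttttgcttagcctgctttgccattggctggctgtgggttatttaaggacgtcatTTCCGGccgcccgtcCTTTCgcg

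Rpl11 measured 848, 664 and 677 CPM in FCPG and 1058, 1023, 922 and 819 CPM in FCSPG, a log2 fold change of 0.39 ± 0.13 (SE). For Rps21, Rplp2 and Rpsa the log2 fold changes were 0.59 ± 0.19 (SE), 0.63 ± 0.21 (SE) and 0.45 ± 0.15 (SE). FCPG library 19 lay within the FCSPG range in all 4 of these genes. Of the 47 members, 37 matched a promoter entry by symbol. CTTTC lay within 30 bases of the start in 10 of 37, against 6.16% of 11671 tested genes with an entry. CCGGAA lay on either strand between 250 bases before and 30 after the start in 21 of 37 (56.8%), against 25.7%. The motifs were searched separately, and CTTTC and TTCCGG could share the letters TTC. A match describes the letters only.

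Subunits of the respiratory chain, which are also short genes, had slightly higher means in FCSPG. Their median length was 1778.5 bases, and that of the ribosomal genes 1726 bases. Of 52 subunits, 43 were higher and 9 lower, 6 and 1 at an unadjusted p under 0.05, against 4.77% and 6.67% of all tested genes. The median log2 fold change was 0.20, and came to 0.077 without FCPG library 46 and 0.085 without FCSPG library 13, each with 1 gene higher at that p. In those fits 2.46% and 3.16% of all tested genes were higher at that p. Cox7c, a subunit of cytochrome oxidase, measured 189, 169.7 and 149 CPM in FCPG and 293, 223, 199 and 199 CPM in FCSPG, where the groups did not overlap and FCSPG library 13 was the highest. Uqcr10, of the bc1 complex, measured 106, 111 and 84.1 CPM in FCPG and 176, 138, 112 and 117 CPM in FCSPG. Cox6c measured 142, 90.7 and 88.6 CPM in FCPG and 183, 149.7, 132 and 139.6 CPM in FCSPG, with FCPG library 19 within the FCSPG range. In Uqcr10 FCPG library 45 and FCSPG library 30 nearly met. On the log2 scale the differences were 0.43 ± 0.17 (SE), 0.43 ± 0.18 (SE) and 0.50 ± 0.18 (SE).

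Gene length ran with the direction of the difference. Genes at an unadjusted p under 0.05 and higher in FCSPG had a median length of 2300 bases in the deposited table, those lower in FCSPG 6807 bases, and all tested genes 3982.5 bases. Across the 16572 genes the Spearman correlation of length with log2 fold change was −0.24, as a description of genes that are not independent. Of 453 genes of up to 500 bases, 10.4% were higher and 1.55% lower at an unadjusted p under 0.05, with a median log2 fold change of 0.31. Of 2592 genes above 8000 bases, 1.23% were higher and 16% lower, with a median of −0.16. The trend differed between libraries of the same group. The median deviation from the mean of the 7 mutant libraries for the shortest genes was 0.34 in FCSPG library 13, 0.17 in FCSPG library 27 and 0.097 in FCSPG library 30. It was −0.28 in FCPG library 45 and −0.21 in FCPG library 46. FCPG library 19 at 0.059 and FCSPG library 32 at −0.038 were nearly flat, and wild-type library 26 reached −0.33. With the trend removed in each library, the ribosomal median came to 0.29 with 31 members higher at an unadjusted p under 0.05. The respiratory median came to 0.049 with 2 such members. In that fit 3.67% of all tested genes were higher at that p. The ranked lower genes had a median length of 8081.5 bases and the higher ones 3294.5, and without the trend Ankrd17 came to a log2 fold change of −0.29 and Dll4 to 1.12.

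**Figure D4:**
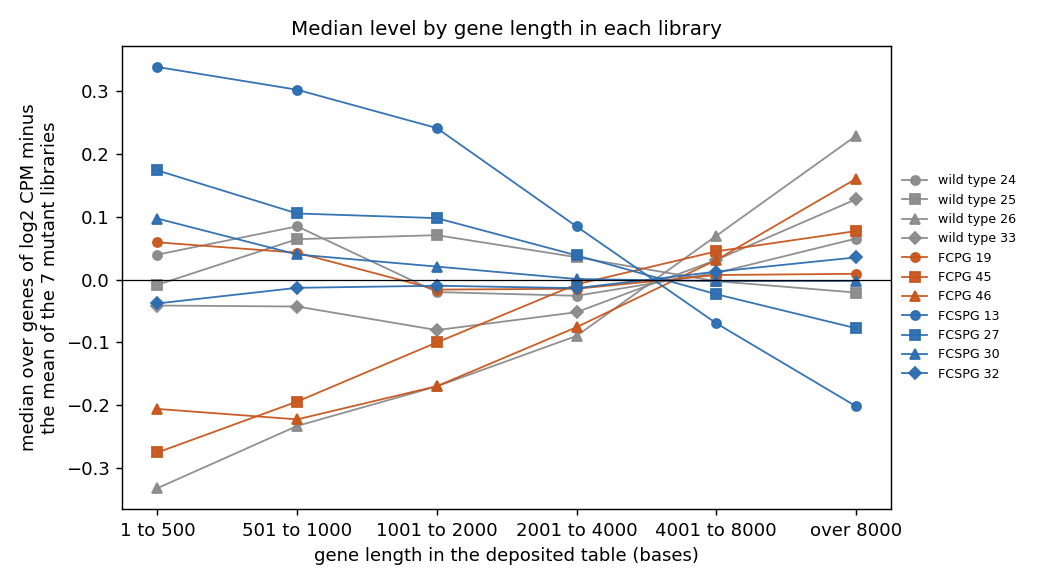
Median deviation of log2 CPM from the mean of the 7 mutant libraries, over genes grouped by their length in the deposited table, in each library. Grey lines are wild type, orange FCPG and blue FCSPG, and lines join the medians of 1 library. FCSPG library 13 falls from 0.34 in the shortest genes to −0.20 in the longest, while FCPG libraries 45 and 46 and wild-type library 26 climb.

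Several matrix and adhesion genes had lower means in FCSPG, with FCPG libraries 45 and 46 high. Fn1, the fibronectin on which somites assemble, measured 806, 1691 and 1387 CPM in FCPG and 689, 807, 827 and 721 CPM in FCSPG. FCPG library 19 lay within the FCSPG range, and the log2 fold change was −0.77 ± 0.21 (SE) with an adjusted p of 0.435. Nid2, a basement membrane nidogen, measured 138, 317 and 219 CPM in FCPG and 103, 142, 123 and 131 CPM in FCSPG, a log2 fold change of −0.85 ± 0.23 (SE) that came to −0.52 without FCPG library 45. Col4a1, the main collagen of basement membranes, measured 297, 1158 and 384 CPM in FCPG and 260.1, 322, 259.8 and 329 CPM in FCSPG, a log2 fold change of −1.07 ± 0.36 (SE) that came to −0.22 without FCPG library 45. Lamb1, a laminin chain, had a log2 fold change of −0.31 ± 0.11 (SE). Of 23 matrix genes, 6 were higher and 17 lower, 0 and 6 at an unadjusted p under 0.05, against 4.77% and 6.67% of all tested genes. Their median of −0.28 came to −0.10 without FCPG library 45, −0.13 without FCSPG library 13 and −0.53 without FCPG library 19. These are long genes, with a median length of 9591 bases, and 16% of all genes above 8000 bases were lower at that p. With the length trend removed the matrix median was −0.18 with 5 genes lower at that p, against 5.58% of all tested genes. Itgb1, the beta 1 integrin, measured 279.99, 499.5 and 493 CPM in FCPG and 297, 268, 294 and 341 CPM in FCSPG. Tln1, the talin that activates integrins, measured 143, 256 and 209 CPM in FCPG and 124, 152, 155 and 149 CPM in FCSPG. In both, FCPG libraries 45 and 46 lay above every FCSPG library and FCPG library 19 among them. Differences on the log2 scale were −0.50 ± 0.19 (SE), −0.48 ± 0.17 (SE) and, for the integrin Itgav, −0.62 ± 0.23 (SE). Of 14 focal adhesion genes, with a median length of 7159 bases, 5 were higher and 9 lower, 0 and 5 at that p. Their median was −0.39. Without FCPG library 45 it came to −0.10 with 0 genes lower at that p, against 2.27% of all tested genes. With the length trend removed it was −0.31 with 3 genes lower, against 5.58%.

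Most neural tube genes and all tested genes of Hox groups 1 to 4 had higher means in FCSPG, and FCPG libraries 45 and 46 had the lowest mean log2 CPM of both lists among the mutants. Irx3, a homeobox factor of the neural tube, measured 22.8, 11.05 and 13.9 CPM in FCPG and 18.5, 39.4, 73.6 and 37.03 CPM in FCSPG, against 18.5 to 68.6 CPM in wild type. FCSPG library 13 lay within the FCPG range and the other FCSPG libraries above it, for a log2 fold change of 1.40 ± 0.51 (SE) and an adjusted p of 0.435. Sox2, of neural and neuromesodermal progenitors, measured 54.03, 1.06 and 21.99 CPM in FCPG and 30.3, 86.5, 97.6 and 42.7 CPM in FCSPG. Pax3, of dorsal neural tube and somites, measured 12.8, 0.295 and 1.34 CPM in FCPG and 5.98, 13.9, 38.1 and 4.08 CPM in FCSPG. Both overlapped between the groups, with FCPG library 45 nearly devoid of them and FCPG library 19 within the FCSPG range. The log2 fold changes of Sox2 and Pax3 were 1.32 ± 0.80 (SE) and 1.68 ± 1.01 (SE). Of 18 neural tube genes 17 were higher and 1 lower. At an unadjusted p under 0.05 there were 2 and 0, against 4.77% and 6.67% of all tested genes. The median of the list was 1.45. It came to 1.11 without FCPG library 45, 1.24 without FCPG library 46 and 0.77 without FCSPG library 30. Without FCPG library 19 it was 3.10 with 14 genes at that p, where 13.9% of all tested genes were higher. Of 12 tested genes in Hox groups 1 to 4, 12 were higher, with a median of 0.78 and 1 gene, Hoxb4, at an unadjusted p under 0.05. The median came to 0.39 without FCPG library 45. Without FCPG library 19 it came to 1.85 with 10 genes at that p, against 13.9% of all tested genes. Hoxb4 measured 37.7, 8.86 and 15.2 CPM in FCPG and 38.7, 40.8, 67.5 and 23.1 CPM in FCSPG, a log2 fold change of 1.05 ± 0.45 (SE), and Hoxa3 had one of 1.39 ± 0.71 (SE).

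Trunk and tail Hox genes split the libraries within each genotype. Of 15 tested genes of groups 5 to 9, 14 were higher and 1 lower in FCSPG with a median of 1.27, 0 of them at an unadjusted p under 0.05. Hoxb9, a trunk gene, measured 119.6, 0.768 and 51.5 CPM in FCPG and 45.8, 297, 559 and 17.9 CPM in FCSPG, against 199.6 to 503 CPM in wild type. Hoxc8 measured 7.76, 1.59 and 44.1 CPM in FCPG and 13.6, 66.9, 145 and 7.15 CPM in FCSPG. FCSPG libraries 27 and 30 were high and FCSPG libraries 13 and 32 low in both genes, and the groups overlapped. The log2 fold changes were 2.00 ± 1.26 (SE) and 1.71 ± 1.12 (SE), and that of Hoxb7 was 1.54 ± 0.89 (SE). The median of the list came to 0.28 with embryo sex as a covariate, 0.40 without FCSPG library 30 and 0.69 without FCPG library 45. Of 9 tested genes of groups 10 to 13, which act in the most posterior tissues, 1 was higher and 8 lower, with a median of −0.62. Hoxa10 measured 2.85, 2.19 and 81.8 CPM in FCPG and 8.67, 10.6, 11.3 and 13.3 CPM in FCSPG, and Hoxa11 0.422, 0.768 and 30.7 and 4.24, 4.28, 5.61 and 3.88 CPM. FCPG library 46 stood far above the 6 other mutant libraries, and FCPG libraries 19 and 45 below all FCSPG libraries. Their log2 fold changes of −1.40 ± 1.02 (SE) and −1.24 ± 1.10 (SE) turned to 2.12 and 2.92 without FCPG library 46, and to 0.49 and 1.09 with limma-voom. The list's median turned to 2.18 without FCPG library 46.

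FCPG library 46 was also the highest mutant library in several genes of lateral plate and germ cells, and in Kdr and Snai1. Tbx20, a T-box factor of lateral mesoderm and heart, measured 17.3, 53.5 and 173 CPM in FCPG and 35.5, 29.02, 34.01 and 47.6 CPM in FCSPG. Kit, the receptor of germ cells and blood progenitors, measured 52.03, 35.7 and 163 CPM in FCPG and 47.2, 55.5, 50.6 and 71.6 CPM in FCSPG. Both had log2 fold changes below 0, −1.15 ± 0.66 (SE) and −0.57 ± 0.41 (SE), that turned to 0.047 and 0.36 without that library. Prdm1, a repressor that specifies germ cells, measured 6.44, 22.9 and 33.05 CPM in FCPG and 9.27, 7.76, 9.82 and 12.9 CPM in FCSPG, and Kdr, the VEGF receptor of endothelium, 68.9, 212 and 312 and 97.3, 111, 109.9 and 95.2 CPM. For these the log2 fold changes were −1.06 ± 0.41 (SE) and −0.93 ± 0.40 (SE), and −0.56 and −0.44 without FCPG library 46. Snai1, a driver of mesenchymal transition, measured 31.9, 30.5 and 98.7 CPM in FCPG and 36.3, 25.5, 25.1 and 31.8 CPM in FCSPG, a log2 fold change of −0.86 ± 0.37 (SE) that came to −0.076 without that library. The median of the lateral plate and allantois list was −0.23 and turned to 0.69, and that of the germ cell list was −0.32 and turned to 1.08. For the endothelium list the highest mean log2 CPM among the mutants was in FCPG library 45, at 4.97 against 4.30 in FCPG library 46. The endothelium median of −0.43 came to −0.41 without FCPG library 46 and to 0.073 without FCPG library 45.

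Progenitor, somite and Notch genes gave few differences at an unadjusted p under 0.05 with all libraries in the fit. In that fit 4.77% of all tested genes were higher and 6.67% lower at that p. Of 16 neuromesodermal progenitor genes, 15 were higher and 1 lower in FCSPG with a median of 0.60 and 0 at an unadjusted p under 0.05, and the median came to 0.081 without FCPG library 45 and 1.88 with 12 higher genes at that p without FCPG library 19. Of 16 presomitic genes, 11 were higher and 5 lower, 0 and 1 at an unadjusted p under 0.05, with a median of 0.10. That median turned to −0.11 and −0.14 without FCPG library 45 or 46, and without FCPG library 19 the list had 8 higher genes at that p. In the fit without FCPG library 19, 13.9% of all tested genes were higher at that p. Of 14 somite genes 11 were higher and 3 lower, 1 and 0 at an unadjusted p under 0.05, with a median of 0.65. It came to 0.11 without FCPG library 45, 0.12 without FCSPG library 30 and 2.48 without FCPG library 19. Of 19 genes of Notch signalling and the segmentation clock, 10 were higher and 9 lower, 0 and 1 at an unadjusted p under 0.05, with a median of 0.00085. The receptors of the pathway had lower means in FCSPG, against the direction of Dll4. Notch1 measured 55.2, 44.2 and 42.95 CPM in FCPG and 19.5, 37.4, 44.4 and 37.03 CPM in FCSPG, against 63.5 to 104 CPM in wild type, and Notch2 65.2, 88.1 and 100.4 and 57.8, 64.7, 64.5 and 67.00 CPM. Their log2 fold changes were −0.46 ± 0.26 (SE) and −0.41 ± 0.16 (SE) with adjusted p of 0.469 and 0.435. The groups overlapped for both.

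Targets of p53 were higher in FCSPG in 11 of 15 genes and lower in 4, with a median of 0.38. At an unadjusted p under 0.05 there were 4 and 0, against 4.77% and 6.67% of all tested genes. Bbc3, the death inducer PUMA, measured 6.38, 3.54 and 6.01 CPM in FCPG and 7.89, 11.5, 12.8 and 6.35 CPM in FCSPG. Bax, the pore former of apoptosis, measured 79.5, 79.04 and 73.7 CPM in FCPG and 129.9, 93.1, 94.8 and 85.1 CPM in FCSPG, without overlap. Zmat3, an RNA-binding p53 target, measured 37.4, 14.9 and 24.5 CPM in FCPG and 32.6, 44.6, 47.99 and 38.04 CPM in FCSPG. These gave log2 fold changes of 0.86 ± 0.31 (SE), 0.38 ± 0.17 (SE) and 0.67 ± 0.25 (SE). Wild type held 5.59 to 9.67, 74.8 to 117 and 38.2 to 42.8 CPM. It overlapped FCSPG in all 3 genes and also FCPG in Bbc3 and Bax, while in Zmat3 it lay above FCPG. Without FCPG library 45 the list's median was 0.29 with 0 genes higher at an unadjusted p under 0.05, where 1.95% of all genes were. Without FCSPG library 13 it was 0.23 with 3, against 3.16% of all tested genes. Of 18 mitotic genes 6 were higher and 12 lower, 0 and 3 at an unadjusted p under 0.05, with a median of −0.11. Ttk, a kinase of the spindle checkpoint, measured 92.03, 94.8 and 91.5 CPM in FCPG and 70.01, 64.7, 71.3 and 90.5 CPM in FCSPG, and Cenpe, a kinetochore motor, 104, 118 and 119 and 85.7, 91.97, 98.2 and 102 CPM. In both every FCSPG library lay below every FCPG library, with log2 fold changes of −0.32 ± 0.12 (SE) and −0.27 ± 0.10 (SE).

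Imprinted and hypoxia-linked genes that were lower in FCSPG followed FCPG libraries 45 and 46. Meg3, a maternally expressed noncoding RNA, measured 257, 991 and 773 CPM in FCPG and 387, 283, 353 and 293 CPM in FCSPG, a log2 fold change of −1.03 ± 0.34 (SE) with an adjusted p of 0.435. Igf2, the paternally expressed growth factor, measured 48.6, 225 and 184 CPM in FCPG and 23.6, 77.6, 94.9 and 62.3 CPM in FCSPG, a log2 fold change of −1.24 ± 0.53 (SE). Vegfa, the growth factor of vessels, measured 75.4, 161 and 179 CPM in FCPG and 87.3, 80.3, 99.03 and 85.6 CPM in FCSPG, a log2 fold change of −0.65 ± 0.23 (SE). In all 3 FCPG library 19 did not exceed the FCSPG range. Meg3 came to −0.65 without FCPG library 45 and Vegfa to −0.42 without FCPG library 46. Of 15 imprinted genes 6 were higher and 9 lower. At an unadjusted p under 0.05 there were 1 and 2, against 4.77% and 6.67% of all tested genes. The median of the imprinted list, −0.26, turned to 0.24 without FCPG library 46 and came to −0.68 without FCPG library 19. Of 20 glycolysis and hypoxia genes 17 were higher and 3 lower in FCSPG, 1 and 1 at an unadjusted p under 0.05. Their median of 0.22 stayed between 0.15 and 0.27 with any 1 library left out. It came to 0.040 in the female libraries, which leave FCPG with library 46 only.

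**Figure D5:**
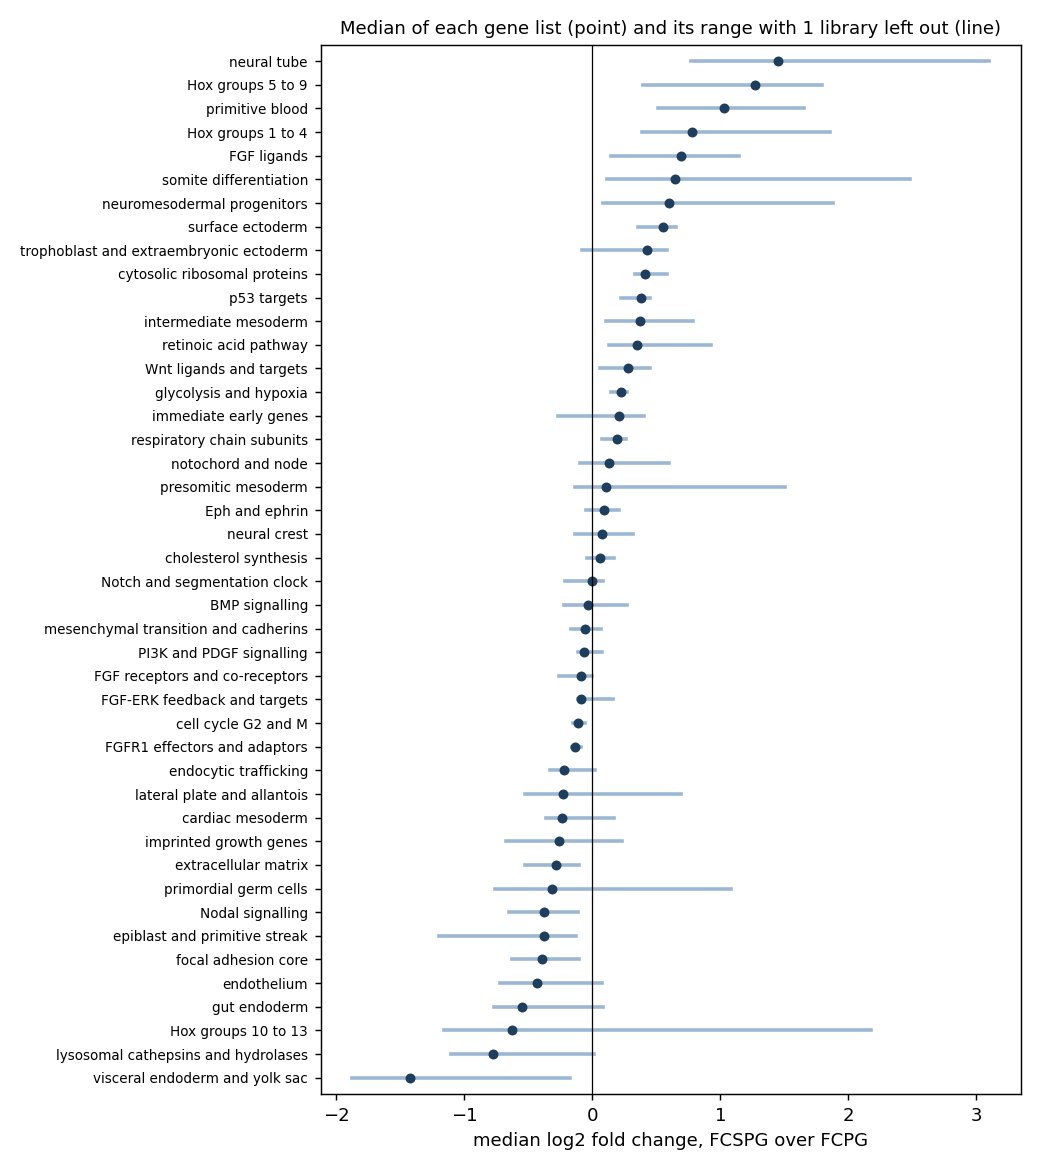
Median log2 fold change of FCSPG over FCPG for each of 44 gene lists (points), and its range over the fits that leave out 1 of the 11 libraries in turn (lines). Lists to the right of 0 were higher in FCSPG. The ribosomal list keeps a narrow range of 0.33 to 0.58, the list of Hox groups 10 to 13 spans −1.16 to 2.18, and 22 of the 44 lines cross 0.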

How the data were processed

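PolyA RNA of microdissected E8.5 tailbud from 3 FCPG, 4 FCSPG and 4 wild-type samples was sequenced. Per the submitters' processing notes, the authors aligned reads with HISAT2 to mm39 and counted them per gene with featureCounts. The counts were deposited as whole numbers. Tool versions and the strand setting are not given in the sources used here, so reads of overlapping or antisense genes cannot be told apart. The authors also deposited a table of log2 fold changes with p-values and adjusted p-values, for which the submitters' processing notes name DESeq2. Its sign was turned to FCSPG over FCPG.

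Column names gave each library's genotype, and 0 columns were left over. Genes were filtered with filterByExpr, scaled by TMM and tested with edgeR 4.0.16 (glmQLFit and glmQLFTest, all 11 libraries in 1 fit, Benjamini-Hochberg adjustment, threshold 0.05) in R 4.3.3. CPM used TMM-scaled library sizes, and log2 CPM a prior count of 2. DESeq2 1.42.0 and limma 3.58.1 served as alternatives, with other filters, covariates (embryo sex, visceral endoderm score), left-out libraries and, added after the data were seen, removal of a gene-length trend. The test was tried on simulated counts. The genes named were Fgfr1 and its effectors, the 12 protein-coding genes per direction with the smallest p among those of at least 5 mean CPM whose groups did not overlap, and up to 4 members per list with the smallest p. Tbx6, Osr1, Pcna-ps2, Rpl23, Rpl30 and the 4 genes with printed promoters lie outside this rule and were chosen after their values were seen. The members and the 44 lists (695 symbols) were chosen with earlier results of these data known. Promoters are from RefSeq on GRCm38.p6, while the counts are on mm39, so no coordinate was carried over. Figures were drawn with matplotlib 3.10.9.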

Additional observations from a re-analysis of the deposited data

Results flagged for a closer look

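In groups of 4 libraries, 304 sets of values (genes and list scores) were searched for 1 library far from the other 3 relative to the group's range, and 13 were found. Chance alone gives about 1 in 20, and 13 of 304 does not exceed that share. The cases below are therefore listed only as a description.

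FCSPG library 32 stood apart from the other FCSPG libraries in 4 genes. Pdgfa, the PDGF ligand, was at 56.7 CPM there and at 107 to 110.1 CPM in the others, and so fell within the FCPG range. Vps35, of the retromer, was at 235 CPM against 145 to 158 CPM. Snx13 was at 22.1 CPM against 17.0 to 17.8 CPM, and Ltn1 at 74.5 CPM against 59.6 to 61.8 CPM, in each case on the side of FCPG.

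Wild-type library 26 stood apart in Gtf3c1 (153 CPM against 133 to 136 CPM), Dnm2 (79.7 CPM against 67.7 to 69.4 CPM), Uqcr10 (68.5 CPM against 92.8 to 97.0 CPM) and Rps21 (286 CPM against 402 to 414 CPM). Wild-type library 25 held 52.0 CPM of Fgf8 against 26.6 to 28.1 CPM. Wild-type library 33 held 75.3 CPM of Tbx20 against 17.5 to 26.8 CPM. Its mean log2 CPM was 4.30 over the Notch list against 4.79 to 4.89, 4.07 over the endothelial list against 4.65 to 4.69, and 4.02 over the Nodal list against 2.10 to 2.22. The wild-type libraries enter the filter on low counts, the scaling and the shared estimate of spread.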

How the results depend on the processing

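Of 108 genes followed over 22 alternative settings, 2351 of 2376 values kept the direction reported, 25 turned, and 57 passed the adjusted threshold. Most of these genes were named for a small p in these same libraries, which the settings share. A kept direction is therefore no separate support, and the 57 lie only in the settings with calls given next. The count of genes called was 0 in the other settings but 1 with DESeq2 on 11 libraries, 28 in the female libraries only and 0 to 1063 with 1 library left out, where 1063 came without FCPG library 19. The count at an unadjusted p under 0.05, 1897 as reported, was 1098 with only the 7 mutant libraries, 937 and 1148 with embryo sex or the visceral endoderm score as covariate, 3598 in the female libraries only, and 717 (without FCPG library 45) to 4774 (without FCPG library 19) with 1 library left out. Leaving out a wild-type library gave 1496 to 1730. With no filter on low counts it was 2513, and the fits of limma-voom, DESeq2 and edgeR with DESeq2's size factors gave 1569, 2198 and 1898. The cause of these shifts was not tested.

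Of the genes that turned sign, the left-out fits spanned −0.096 to 0.050 for Crkl, −0.24 to 0.088 for Fgfr1, −0.35 to 0.18 for Grb14, −0.22 to 0.14 for Plcg1, −0.041 to 0.31 for Shb, −0.36 to 1.49 for Tbx6, −1.95 to 2.12 for Hoxa10, −1.81 to 2.92 for Hoxa11, −0.94 to 0.36 for Kit and −1.63 to 0.047 for Tbx20. Crkl came to 0.044 with sex as a covariate, 0.011 without FCPG library 19, 0.050 without FCSPG library 30 and 0.019 without the length trend. Fgfr1 came to 0.061 with sex as a covariate, 0.088 without FCPG library 19 and 0.035 without the length trend. Grb14 came to 0.019 with the visceral endoderm score, 0.14 in the female libraries and 0.18 without FCPG library 45. Plcg1 came to 0.14 without FCPG library 46 and 0.042 without the length trend. Shb came to −0.029 in the female libraries, −0.0054 without FCPG library 45 and −0.041 without FCSPG library 13. Tbx6 came to −0.32 without FCPG library 45, −0.36 without FCPG library 46, −0.15 without FCSPG library 13 and −0.069 without the length trend. Without FCPG library 46 Hoxa10 came to 2.12, Hoxa11 to 2.92, Kit to 0.36 and Tbx20 to 0.047, and limma-voom gave 0.49 for Hoxa10 and 1.09 for Hoxa11. Of the 44 list medians, 22 kept their sign in all settings run. A minimum log2 fold change of 1 left 0 genes called.

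No paired analysis was possible because the column names carry no replicate number of the sample titles. The female libraries leave FCPG with 1 library, which is assumed to vary like the others.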

Other observations

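Genes of the primitive streak and of Nodal signalling were mostly lower in FCSPG, 12 of 15 and 10 of 11, with medians of −0.38 and −0.37. Of these, 2 and 1 had an unadjusted p under 0.05, against 6.67% of all tested genes lower at that p. The streak median came to −1.20 without FCSPG library 32 and −0.13 without FCSPG library 30, and the Nodal median to −0.11 without FCPG library 46 and −0.65 without FCPG library 19. Lefty2, a Nodal antagonist in both lists, measured 0.211, 16.2 and 2.43 CPM in FCPG libraries 19, 45 and 46 and 0.179, 0.619, 0.427 and 0.907 CPM in FCSPG libraries 13, 27, 30 and 32. FCPG libraries 45 and 46 lay above every FCSPG library and FCPG library 19 did not, and edgeR gave a log2 fold change of −3.53 ± 1.04 (SE) with an adjusted p of 0.435, and −1.27 without FCPG library 45. Six2, a kidney progenitor factor, measured 1.06, 6.97 and 10.9 CPM in FCPG and 0.658, 0.952, 1.55 and 2.67 CPM in FCSPG, with the same libraries high. Its log2 fold change was −2.11 ± 0.66 (SE), although 8 of 10 intermediate mesoderm genes were higher in FCSPG. Efnb1, the ephrin B1 of somites and neural crest, measured 87.96, 272 and 217 CPM in FCPG and 97.03, 111, 97.96 and 124 CPM in FCSPG. Bmp5, a ligand of lateral mesoderm, measured 10.9, 33.2 and 18.5 CPM in FCPG and 9.86, 11.8, 11.2 and 13.9 CPM in FCSPG. FCPG libraries 45 and 46 were the highest mutant libraries in both, with log2 fold changes of −0.84 ± 0.31 (SE) and −0.84 ± 0.33 (SE) that came to −0.51 and −0.34 without FCPG library 45.

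A few genes went the other way. Wnt6, a Wnt ligand of surface ectoderm, measured 49.2, 4.903 and 26.5 CPM in FCPG and 69.4, 106, 79.7 and 32.6 CPM in FCSPG, a log2 fold change of 1.42 ± 0.59 (SE) that came to 0.92 without FCPG library 45 and 2.20 without FCPG library 19. Jund, of the AP-1 family, measured 20.9, 16.3 and 11.2 CPM in FCPG and 22.8, 33.02, 43.5 and 20.8 CPM in FCSPG, a log2 fold change of 0.89 ± 0.38 (SE). Ankrd37, a hypoxia-induced gene, measured 2.32, 2.19 and 2.37 CPM in FCPG and 5.32, 3.62, 8.27 and 2.67 CPM in FCSPG, a log2 fold change of 1.11 ± 0.45 (SE). In Ankrd37 the groups did not overlap, while in Wnt6 and Jund FCSPG library 32 lay within the FCPG range. Genes of primitive blood were higher in FCSPG in 12 of 16 cases, 1 of them at an unadjusted p under 0.05, against 4.77% of all tested genes. The median of the blood list was 1.03, and came to 0.51 without FCPG library 46 and 1.65 without FCPG library 19. Genes of endothelium were lower in 13 of 15 cases with a median of −0.43 that came to 0.073 without FCPG library 45.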
